A study of Mus musculus with 4 samples.

Results

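Genes that lie wholly inside a gene of the opposite strand without sharing an exon base with any opposite-strand gene were examined in mouse T-helper 2 (Th2) cells. They were found from the exon coordinates of the count files alone, with no use of the counts. A gene was taken when its whole span, from its lowest exon start to its highest exon end, lay within the span of 1 or more opposite-strand genes. The mitochondrial genome and the X and Y chromosomes were left out. This gave 4030 nested genes of 50600 annotated genes, or of the 46381 genes outside the excluded chromosomes. They lay in 2777 enclosing genes. The RNA came from primary Th2 cells of strain C57BL/6NJ, placed by the file headers at 72 h in connection with a sort, and 4 biological replicates of 1 group were measured by RNA-seq. The labels give the same donor identifier for all 4, so nothing says that the replicates came from separate animals, and the spread between them may be partly technical.

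A gene can lie in an intron of another gene and be read from the other strand. Both genes are then transcribed across the same stretch of DNA in opposite directions, while their spliced RNAs share no complementary exon. The guests are of several kinds. Some are complete protein-coding genes with a promoter of their own, and Sla inside Tg is a known case. Others are processed pseudogenes, which are copies of spliced mRNAs inserted into the genome, or small RNA genes and copies of them. Still others are antisense or other long noncoding RNAs. Because the enclosing gene's pre-mRNA runs through the guest, the strand assigned to a read over the guest decides whether it is counted for the guest.

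The sequences below show what kinds of feature carry the counts described later. Gm43980, the nested gene with the most counts, is an unspliced model of 1612 bp inside Tra2a. Gm37637 is an unspliced antisense model of 1256 bp inside Mrps22. Gm37856 is an unspliced model of 999 bp, of the class TEC described below, inside Cd247, the zeta chain gene of the T cell receptor complex. For these 3 the first 300 bases of the RNA strand are given (GENCODE M21 transcripts, GRCm38/mm10). Gm22478 (154 bp, inside Snrnp70) and Gm26394 (115 bp, inside Top2a) are the snoRNA models with the most counts and are given whole. Capitals mark each AATAAA, the hexamer of the polyadenylation signal, and each TTTATT, its reverse complement.
Gm43980, chr6:49254851-49255150, plus strand: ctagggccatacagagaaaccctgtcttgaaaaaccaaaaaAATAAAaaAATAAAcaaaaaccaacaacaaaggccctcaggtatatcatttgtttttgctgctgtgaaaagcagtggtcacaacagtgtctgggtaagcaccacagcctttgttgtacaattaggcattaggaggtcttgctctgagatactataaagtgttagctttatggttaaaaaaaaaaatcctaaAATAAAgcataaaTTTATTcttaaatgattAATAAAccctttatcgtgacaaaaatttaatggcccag
Gm37637, chr9:98590495-98590794, plus strand: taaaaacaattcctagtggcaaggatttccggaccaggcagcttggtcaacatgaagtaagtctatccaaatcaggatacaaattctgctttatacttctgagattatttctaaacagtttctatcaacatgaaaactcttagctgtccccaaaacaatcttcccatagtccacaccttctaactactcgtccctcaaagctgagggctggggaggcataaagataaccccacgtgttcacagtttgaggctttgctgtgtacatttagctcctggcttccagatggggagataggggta
Gm37856, chr1:165845786-165846085, minus strand: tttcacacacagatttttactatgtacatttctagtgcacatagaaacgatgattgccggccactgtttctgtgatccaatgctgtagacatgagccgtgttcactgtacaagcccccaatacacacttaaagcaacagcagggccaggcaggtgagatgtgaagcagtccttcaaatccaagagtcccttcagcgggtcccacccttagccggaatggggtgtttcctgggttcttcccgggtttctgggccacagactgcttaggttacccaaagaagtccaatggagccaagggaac
Gm22478, chr7:45388531-45388684, plus strand: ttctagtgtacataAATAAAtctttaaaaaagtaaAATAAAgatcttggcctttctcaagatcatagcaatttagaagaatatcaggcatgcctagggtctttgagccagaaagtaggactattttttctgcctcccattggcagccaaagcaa
Gm26394, chr11:98999508-98999622, plus strand: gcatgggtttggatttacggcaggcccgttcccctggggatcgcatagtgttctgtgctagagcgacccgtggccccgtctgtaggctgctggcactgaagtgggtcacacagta

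Among nested miRNA hairpins with a mean count of at least 10, those of Mir6386 and Mir378b have a mature sequence in RefSeq (GRCm38.p6). It is shown with the seed, bases 2 to 8, in capitals. The seeds of these miRNAs differ.
mmu-miR-6386, chr9:92267334-92267357, minus strand: cAUGCCUUagggugggaugcaagu
mmu-miR-378b, chr11:88352839-88352858, plus strand: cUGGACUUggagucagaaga

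The first 300 bases of Gm43980 held AATAAA 4 times and TTTATT 1 time, and 34% of these bases were G or C. Gm37637 and Gm37856 held neither hexamer in the stretch shown, with 43.3% and 50% of G and C. Over the 2529 single-exon nested genes with a transcript sequence, AATAAA occurred in 17.8% and TTTATT in 13.2%. Longer genes hold more of both. Among those of 301 to 1000 bp, AATAAA was found in 16.5% of the 79 with at least 20 counts over the libraries and in 16.4% of the 677 without a count. TTTATT was found in 13.9% and 10.5% of the same sets. A match is a run of letters and was not taken as a used site.

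The total gene count was 1274431 to 1857433 per library. A count of 0 allows a level of up to 3 counts, which is 1.62 to 2.35 counts per 1000000 (CPM). This limit and the intervals below cover counting error only. On their own strand, 9 of 9 T cell markers and 10 of 10 Th2 markers had counts, summing to 138 to 835 and 308 to 773 per library. The CD8 and natural killer markers were at 0 in all 4 libraries. Of 5 B cell markers, 2 had counts, summing to 2 to 41 per library, and Ms4a1, itself a nested gene, and Pax5 were at 0. Of 5 myeloid markers, Adgre1, Cd14, Itgam and Lyz2 were at 0, while Csf1r, the receptor of a macrophage growth factor, had 542 to 827 counts per library. Csf1r shares 871 of its 4885 exon bases with opposite-strand genes, and the part of these bases or of other cells in its counts was not tested. Per the file headers, fragments were counted with the strand option set to 1, while the sources used here do not say which strand the kit keeps. If it keeps the opposite one, the counts of a guest are fragments from the strand of its enclosing gene, and the reverse. Every level, order and guest-to-host ratio below depends on this, and it was not tested. Genes that share exon bases with an opposite-strand gene, 8001 in number, held 77.0% to 88.8% of the counts. The values below are own-strand counts and make no statement on how much RNA a gene gave.

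The 4030 nested genes were 1364 pseudogenes, 973 small RNA genes, 912 long noncoding genes, 473 protein-coding genes and 279 models of the class TEC, which GENCODE keeps for transcripts that await experiments. Another 14 had other types and 15 had no name in GENCODE M21. Most lay within a single intron. The span of 3795 held no exon of the enclosing gene, while 235 were interleaved with its exons. A single exon made up 2618 of them (65.0%), and the median exon length was 530.0 bp. The enclosing gene was protein-coding for 3172 (78.7%) and long noncoding for 781 (19.4%), and 683 enclosing genes held 2 or more guests.

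Of the nested genes, 1186 (29.4%) had a count in at least 1 library, against 34.7% of all genes outside the excluded chromosomes. A mean count of at least 10 over the 4 libraries was reached by 245 (6.08%), against 16.3% of all genes. These are called well counted here. No count was seen in any library for 2844 (70.6%), and 309 had a count in every library. Both shares were below those of genes as a whole, as a description without a test.

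Their share of all counts was 0.727% in replicate 1 (95% Wilson interval 0.714 to 0.739), 0.774% in replicate 2 (0.762 to 0.787), 0.852% in replicate 3 (0.837 to 0.867) and 0.774% in replicate 4 (0.759 to 0.790). The mean share was 0.782% ± 0.0520 (SD, n = 4). A few genes carried much of this. The 10 highest held 26.5% of the counts of all nested genes and the 100 highest 62.7%.

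Among noncoding types, the share of genes with a count was higher for guests of opposite-strand genes than for like genes that no opposite-strand gene crosses. For protein-coding genes it was near that of free ones. For each type the comparison was with genes nested in a gene of their own strand and with genes that lie within no other gene, both without any opposite-strand gene across them. A count was found in 28.1% of nested pseudogenes, 8.07% of those in same-strand genes and 6.12% of free ones. For small RNA genes the shares were 21.3%, 1.94% and 2.23%, and for long noncoding genes 29.5%, 11.3% and 11.4%. TEC models had a count in 33.3%, 7.87% and 10.5%. Protein-coding genes showed another order. Nested protein-coding genes had a count in 48.6%, close to 49.1% of free ones, and those in same-strand genes in 30.6%. A mean count of at least 10 gave the same order for pseudogenes against same-strand ones (3.81% against 0.130%) and for protein-coding genes (18.6% nested, 8.24% in same-strand genes and 20.7% free).

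**Figure D1:**
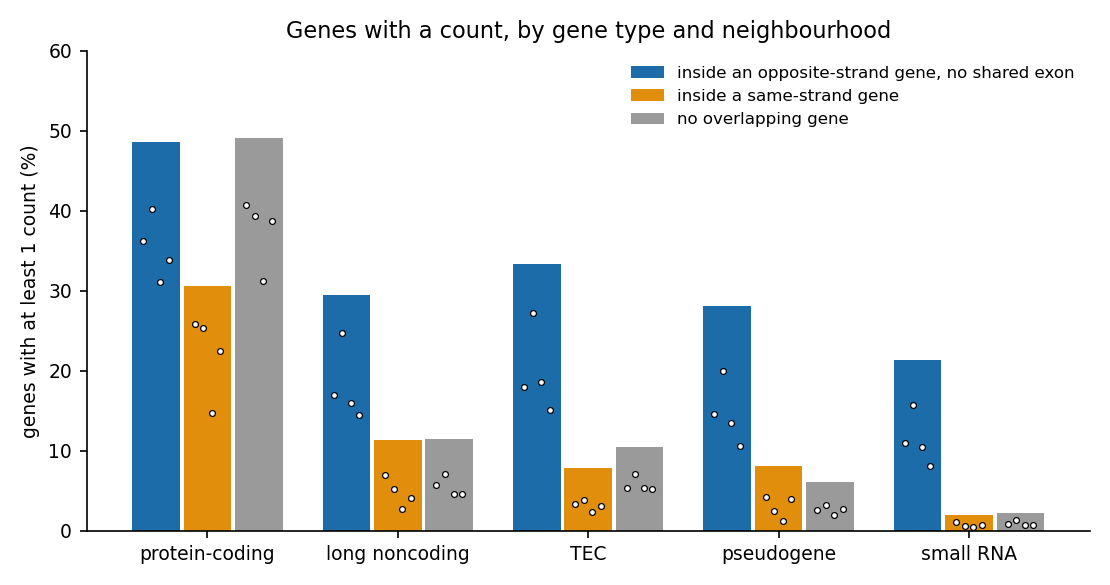
Percentage of genes with at least 1 count (y axis) by gene type (x axis) for genes nested in an opposite-strand gene, nested in a same-strand gene, or within no other gene. Bars count a gene with a count in any of the 4 libraries and white points, from left to right, count replicates 1 to 4 alone; for pseudogenes the bars stand at 28.1%, 8.07% and 6.12%.

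Summed over all nested genes, the density was 1.86, 1.99, 2.19 and 1.99 CPM per kb of exon in replicates 1 to 4. Genes nested in same-strand genes had 0.216, 0.122, 0.146 and 0.247 CPM per kb. These 2 ranges did not overlap, and the means were 2.01 ± 0.133 and 0.183 ± 0.0587 (SD, n = 4). Genes within no other gene had 1.98, 0.972, 1.04 and 2.44 CPM per kb (1.61 ± 0.720), which overlaps the range of the nested genes and exceeds it in replicate 4. Genes sharing exon bases with an opposite-strand gene stood higher still, at 27.3 ± 1.90 CPM per kb. Features under 200 bp reached 5.05 ± 0.806 CPM per kb among nested genes. Unless set otherwise, featureCounts assigns a fragment that overlaps a feature by a single base, which raises the density of features shorter than a fragment.

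The share of nested genes with a count differed with the own-strand level of the enclosing gene. It was 7.91% of the 1834 whose enclosing gene had no count and 36.0% of the 1084 with an enclosing gene above 0 and up to 1 CPM per kb. For enclosing genes above 1 and up to 10 CPM per kb it was 61.5% of 805, and above 10 CPM per kb 50.8% of 307. For genes nested in same-strand genes the corresponding shares were 4.29%, 6.47%, 10.7% and 9.94%. At each of the 4 levels the share was higher for the opposite-strand guests, and in both sets the highest level did not give the highest share with a count. A mean count of at least 10 was reached by 1.42%, 4.89%, 14.4% and 16.3% of the opposite-strand guests, highest at the highest level. For genes nested in same-strand genes these shares were 0.808%, 0.164%, 0.677% and 0.432%.

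The share with a count was higher for nested genes near an exon of the opposite strand than for those deep in an intron. The median distance to the nearest such exon was 3547 bp, and the smallest was 1 bp. A count was found in 43.7% of the 339 nested genes at 1 to 200 bp, 40.9% of 658 at 201 to 1000 bp, 35.2% of 1307 at 1001 to 5000 bp, 21.6% of 1132 at 5001 to 20000 bp and 10.8% of 594 farther away. The density fell in the same order, from 4.66 ± 0.409 through 3.60 ± 0.372, 2.23 ± 0.157 and 0.917 ± 0.0711 to 0.379 ± 0.0795 CPM per kb (SD, n = 4). Without the 5 highest genes of each class, the nearest class was no longer the densest. The values were then 2.21, 2.65, 1.64, 0.597 and 0.167 CPM per kb.

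The level of the enclosing gene changed with the same distance. Its median own-strand density was 0.291, 0.202, 0.238, 0.0389 and 0 CPM per kb from the nearest class to the farthest, and its part in the trend was not tested. Within the same enclosing gene the order was mixed. Among 103 enclosing genes with at least 2 guests and at least 20 guest counts, the nearest guest was denser in 54, the farthest in 46 and the values were equal in 3. At the edge of the definition, 63 nested genes lay within 50 bp of an opposite exon and had 3.03 ± 0.633 CPM per kb. The 109 genes nested in the same way but sharing 1 to 50 exon bases had 30.0 ± 3.70 CPM per kb.

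**Figure D2:**
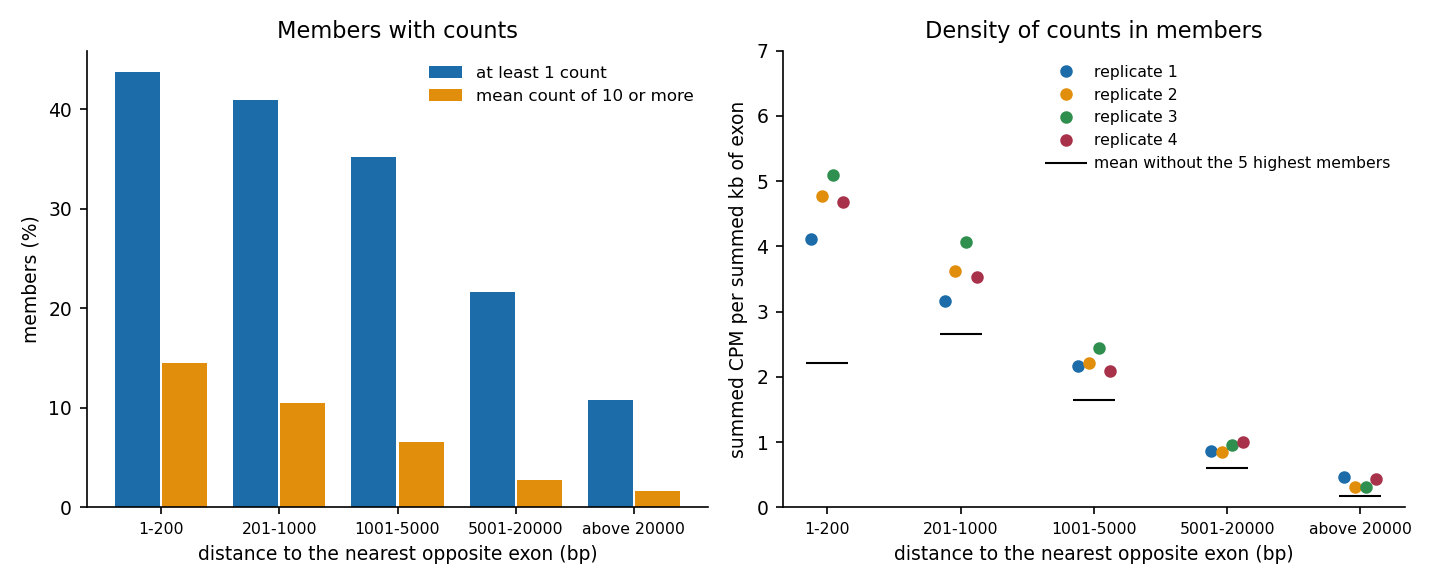
Nested genes by distance to the nearest exon of an opposite-strand gene (x axis, bp). Left, percentage with at least 1 count and with a mean count of at least 10; right, summed CPM per summed kb of exon in each replicate (points) and the mean of the replicates without the 5 highest genes of each class (lines). The share with a count goes from 43.7% in the nearest class to 10.8% in the farthest.

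For 116 enclosing genes, an intronic guest could be set beside another opposite-strand gene that shares at least 100 bp and at least 50% of its exon length with the enclosing gene's exons. The gene across the exons had the higher density in 65, the intronic guest in 12, and both were at 0 in 39. In the 47 where both had counts, the gene across the exons was a median of 18.2-fold denser. Inside Rnf123, a ubiquitin ligase gene, the guests together had 40.8 CPM per kb and Gm20529, across its exons, had 465. At Bnip3, a mitophagy receptor gene, the guest Gm18258 had 23.3 and Gm45507 6927 CPM per kb. At Clcn4 it was the guest, Mir5620, that was denser, with 66.7 against 53.7 for Gm45631. These examples were chosen after their values were seen. Spearman's rho between both densities was 0.64 over the 116 enclosing genes, and 0.59 between the guest and the own-strand density of the enclosing gene. All points come from the same 4 libraries, and the rho values are descriptions that include the 39 enclosing genes with both at 0. Over the 160 pairs described below, in which guest and enclosing gene were both well counted, rho between their densities was only 0.10.

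Each nested gene was then set against its own enclosing gene. Of 1584 pairs with at least 20 counts together, the nested gene had more counts per kb of exon in 570 (36.0%), against 3.63% of 1762 such pairs for genes nested in same-strand genes. The nested gene had no count in 627 pairs and the enclosing gene none in 45. Per library, the median log2 ratio of nested to enclosing density, with 0.5 counts added, was -0.51, 0.68, 0.65 and -0.73 in replicates 1 to 4, with a mean of 0.02 ± 0.75 (SD, n = 4). This median rests on the counts added, since the nested gene was at 0 in 969, 795, 1016 and 1096 of the pairs. With 0.1 counts added it was -2.17, -0.78, -1.03 and -2.55. Without added counts, the nested gene was denser in 420, 595, 453 and 331 pairs and the enclosing gene in 1134, 965, 1014 and 1196, so the enclosing gene was denser in most pairs of every library.

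Of the 245 well counted nested genes, 160 had an enclosing gene that was also well counted, and 26 had one with no count at all. In these 160 pairs, a set chosen after seeing the data, the nested gene was denser in 111 (69.4%). The same minimum count asks a higher density of a short guest than of a longer host, so this share is in part fixed by the choice of pairs. The median log2 ratio was 1.18, 2.34, 2.77 and 0.84 in replicates 1 to 4. Median densities were 16.3 CPM per kb for the nested and 4.69 for the enclosing gene. Spearman's rho between both densities was 0.10 over these 160 pairs, as a description.

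**Figure D3:**
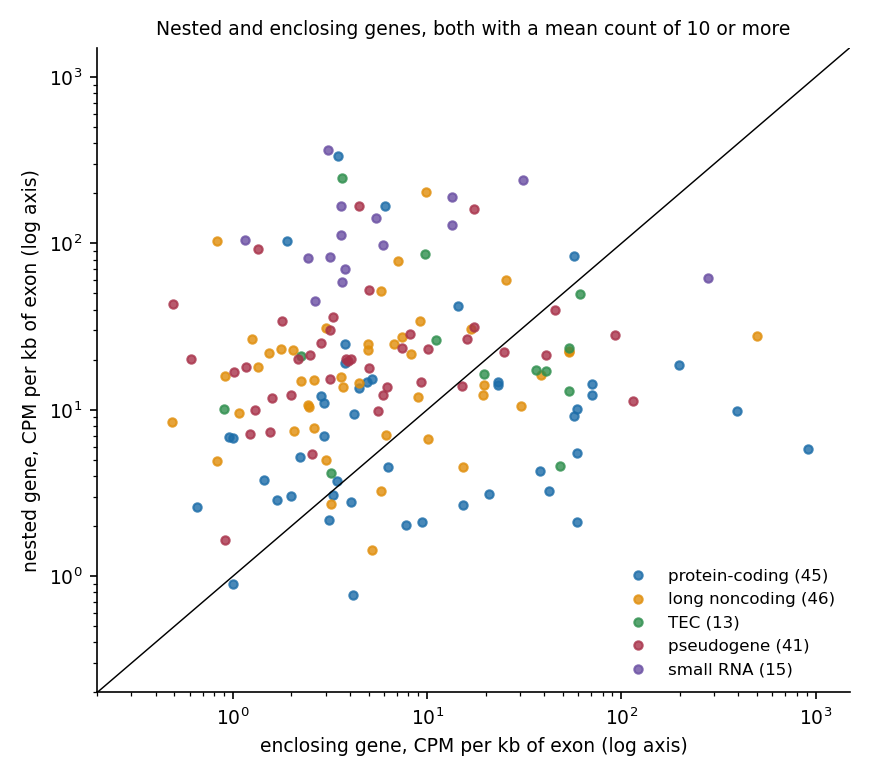
Mean density of the nested gene (y axis) against that of its enclosing gene (x axis), both in CPM per kb of exon on log axes, for the 160 pairs in which both genes had a mean count of at least 10. Colours give the type of the nested gene, and the line marks equal density; 111 of the 160 points lie above it.

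The nested gene with the most counts was Gm43980 (chromosome 6, 49254851 to 49256462, mm10, plus strand), whose sequence begins with the AATAAA-rich stretch shown above. It lies in an intron of Tra2a, a splicing factor gene, 1743 bp from the nearest exon. It had 740, 856, 643 and 355 counts in replicates 1 to 4, while Tra2a had 50, 10, 16 and 72. Every library placed the intronic model far above the gene around it. Its level was 399.9 ± 83.0 CPM (SD, n = 4), and the log2 ratio of densities lay between 4.40 and 8.46.

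Other noncoding guests showed the same order. Gm16185 (chromosome 9, 97085326 to 97088610), an antisense gene with 2 exons in Slc25a36, a mitochondrial carrier gene, had 585, 660, 489 and 398 counts against 10, 3, 6 and 26. The antisense gene 1700058P15Rik (chromosome 7, 19258492 to 19259739), 7 bp from an exon of the actin regulator gene Vasp, had 117, 179, 157 and 82 counts against 102, 39, 5 and 28. Gm37637 (chromosome 9, 98590495 to 98591750) in Mrps22, a mitochondrial ribosomal protein gene, had 127, 137, 154 and 97 counts against 15, 6, 6 and 6. These 3 had a higher density than their enclosing gene in 4 of 4 libraries. Gm45854 in the casein kinase gene Csnk2a2, with 167, 119, 87 and 97 counts against 25, 12, 14 and 71, did so too. Its counts did not vary beyond Poisson sampling (adjusted p = 0.0748, chi-square test).

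Gm28370, with 162, 144, 139 and 70 counts, and C130083M11Rik, with 92, 147, 166 and 85, lie in Gm20498 and 9230114K14Rik, which had no count. Gm17055 was the exception among the 15 highest. It had 133, 150, 142 and 48 counts, but 0610040F04Rik around it had 1526, 2416, 1636 and 1284. Its log2 density ratio was between -5.01 and -3.80, below 0 in every library.

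**Figure D4:**
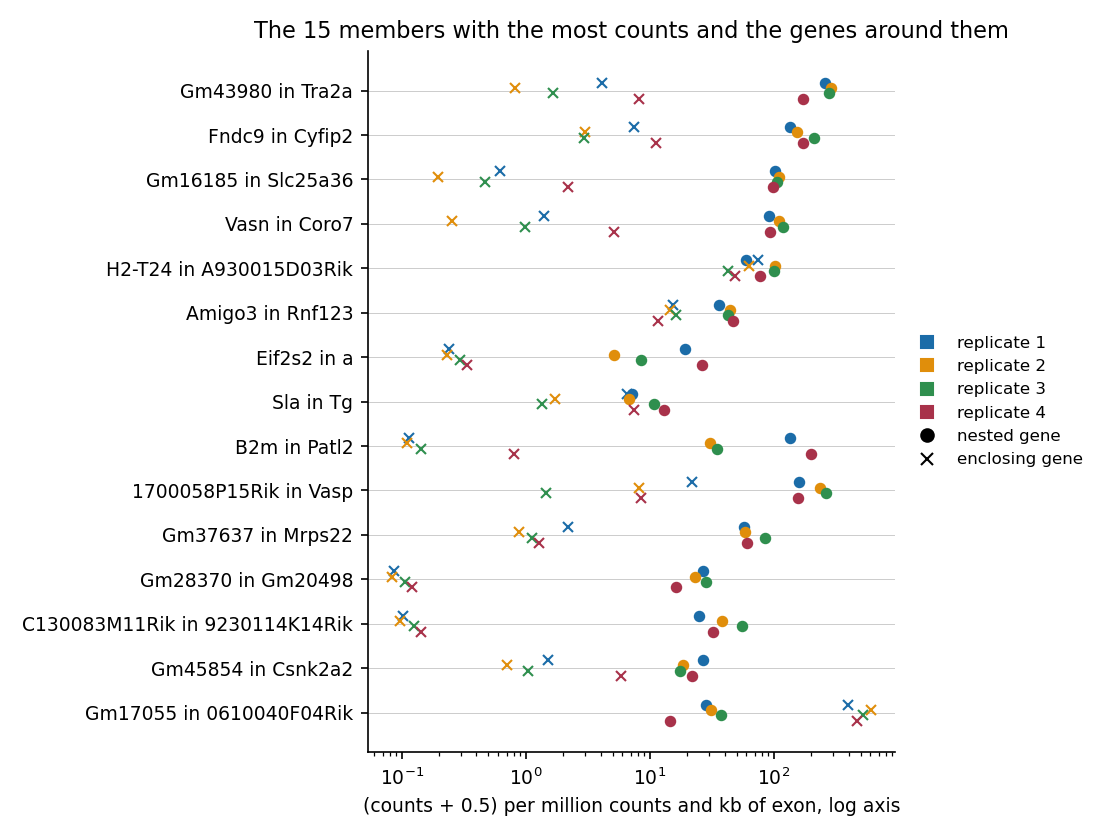
Density on the annotated strand, (counts + 0.5) per 1000000 counts and kb of exon on a log axis, of the 15 nested genes with the highest mean CPM (circles) and of the gene around each (crosses), coloured by replicate. Circles lie to the right of crosses for most pairs; Gm17055 in 0610040F04Rik lies to the left in 4 of 4 libraries.

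Protein-coding guests with roles at the cell surface were among the highest. Fndc9 (chromosome 11, 46235531 to 46239872) encodes a membrane protein with a fibronectin domain and lies 132 bp from an exon of Cyfip2, a gene of the actin-regulating WAVE complex. It had 547, 654, 701 and 499 counts against 93, 39, 30 and 100 for Cyfip2, and 384 ± 75.6 CPM. Vasn (chromosome 16, 4639941 to 4650802), the gene of the TGF-beta-binding protein vasorin, is interleaved with exons of Coro7 and had 489, 610, 512 and 353 counts against 18, 3, 10 and 48. Amigo3 (chromosome 9, 108053159 to 108055701), an adhesion molecule gene in Rnf123, had 163, 207, 157 and 150 counts against 183, 181, 159 and 100. All 3 were denser than the enclosing gene in 4 of 4 libraries, Amigo3 by log2 ratios of only 1.24 to 1.99. Rnf123 shares 1216 of its 6754 exon bases with opposite-strand genes, and Coro7 153 of its 7420.

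Several guests encode immune proteins. H2-T24 (chromosome 17, 36005695 to 36020560), a nonclassical class I gene of the major histocompatibility complex, had 229, 412, 314 and 213 counts inside A930015D03Rik, which had 147, 130, 68 and 68. The density ratio was below 0 on the log2 scale in replicate 1 (-0.34) and above 0 in the others (0.67 to 1.23). A930015D03Rik shares 1003 of its 1111 exon bases with opposite-strand genes. Fragments that align to several near-identical class I genes could be misplaced or left uncounted, so the counts of H2-T24 are uncertain. B2m (chromosome 2, 122147686 to 122153083), the light chain of class I molecules, had 205, 48, 43 and 218 counts in Patl2, which had 0, 0, 0 and 2. Counts of B2m were thus several times higher in replicates 1 and 4, and its mean of 85.4 ± 70.4 CPM has an SD near the mean itself.

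Sla (chromosome 15, 66780819 to 66831829), the Src-like adaptor that dampens T cell receptor signalling, is interleaved with exons of Tg, the thyroglobulin gene. It had 117, 115, 143 and 152 counts, and Tg had 102, 28, 17 and 84. The log2 density ratio was 0.15, 1.97, 2.99 and 0.80, above 0 in each library. Tg also shares 112 exon bases with opposite-strand genes. Cd27 (chromosome 6, 125232622 to 125237010), a costimulatory receptor of the TNF receptor family, had 73, 116, 140 and 41 counts in the vesicle SNARE gene Vamp1, which had 50, 89, 68 and 38. The log2 density ratio of Cd27 was 2.23 to 3.16, above 0 in each library.

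Further nested immune genes are named here after their values were seen. Tapbpl, which edits peptides on class I molecules, is a second guest of Vamp1 with 63, 110, 66 and 51 counts. H2-T23, a second class I guest of A930015D03Rik, had 45, 29, 49 and 39. Gpr183, the oxysterol receptor that guides lymphocytes, had 50, 52, 60 and 40 counts in Ubac2 and was denser than Ubac2 in 4 of 4 libraries. Gpr18, in the same gene, had 10, 26, 12 and 11. Ptger2, a prostaglandin E2 receptor gene inside the uncounted Gm17173, had 41, 77, 30 and 80. Ly9, a SLAM family receptor gene, had 25, 19, 10 and 37 counts inside Cd244a, another SLAM family gene, which had none.

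Housekeeping genes made up another group of coding guests. Eif2s2 (chromosome 2, 154871410 to 154892935), a subunit of the translation initiation factor eIF2, had 230, 64, 82 and 226 counts inside a, the agouti gene, which had none. Ipo7 (chromosome 7, 110018274 to 110056609), a nuclear import receptor gene, had 119, 22, 19 and 174 inside 1600010M07Rik, which had 6 counts in replicate 1 and none elsewhere. Rpl35a (chromosome 16, 33056453 to 33060189), a ribosomal protein gene, had 156, 73, 40 and 137 inside Gm17106, which had 136, 179, 143 and 115. Each of these guests had its lowest values in replicates 2 and 3. The 9 T cell markers summed to 762, 313, 138 and 835 counts, low in the same libraries, and whether this bears on the guests was not tested. Relative to their neighbours they stood differently. Rpl35a was less dense than Gm17106 in 4 of 4 libraries, with log2 ratios of -4.77 to -2.69, and Ipo7 was denser than 1600010M07Rik in all 4, at 1.51 to 5.76.

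Enclosing genes with 2 or more well counted guests numbered 17 of 219. Gm20388, a long model that spans many genes and had no count of its own, enclosed 92 nested genes, of which 9 were well counted. Of those 9, 7 were protein-coding. Slc7a5, the large neutral amino acid transporter gene, had 43, 40, 9 and 98 counts, Cyba, a subunit gene of the phagocyte oxidase, 79, 19, 46 and 35, and Mvd, an enzyme gene of the mevalonate pathway, 37, 46, 36 and 16. The replicate with the highest count differed among these guests of 1 gene. Fgfr2, also without a count, enclosed Bub3 and Tacc2.

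Of the 5 highest density ratios among the 160 pairs, 3 belonged to short features. Gm25965, a snoRNA model of 93 bp in the kinase gene Pkn2, had 14, 7, 18 and 19 counts and a mean log2 ratio of 7.35 ± 1.89. Gm23935, a 57 bp miRNA hairpin in Zc3h7a, had 40, 51, 18 and 27 counts and a ratio of 7.20 ± 1.45. Gm17622, listed as protein-coding with only 45 bp of exon, had 14, 19, 47 and 12 counts in Polk, a DNA polymerase gene, and a ratio of 6.66 ± 1.87. Fragments that extend beyond a feature this short can be counted for it, and their part in these ratios was not tested. The other ratios among these 5 were those of Gm16185 (7.46 ± 1.51) and Gm43980 (6.56 ± 1.76), described above.

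The lowest ratios belonged to guests of strongly counted long noncoding models. Prr13, a coding gene, had 10, 8, 11 and 24 counts inside Gm26518, which had 4498, 6150, 4864 and 3507, for a mean log2 ratio of -7.47 ± 0.98. Fut11, a fucosyltransferase gene, had 66, 50, 60 and 34 counts against 786, 1311, 886 and 896 for 6230400D17Rik. Srf, the serum response factor gene, had 14, 15, 10 and 15 against 131, 267, 174 and 97 for Gm26904. The processed pseudogene Gm5587 had 13, 3, 31 and 0 counts inside 4732471J01Rik, which had 864, 1104, 862 and 407. With Gm17055, described above, these were the 5 lowest ratios, and each was below 0 in every library. Their enclosing genes also share exon bases with opposite-strand genes, from 118 bp for 0610040F04Rik to 918 bp for 4732471J01Rik.

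Genes around the T cell receptor pathway and T helper fate were examined as hosts. Of 170 genes in a T cell list, 29 enclosed 41 nested genes. A count was found for 26 of the 41 (63.4%, against 34.7% of all genes), and 8 (19.5%, against 16.3%) were well counted. Their summed level was 142, 215, 268 and 159 CPM in replicates 1 to 4. All 29 hosts had counts. Over the levels of counted enclosing genes given above, 36.0% to 61.5% of nested genes had a count and 4.89% to 16.3% were well counted. The list was made with results of these data known, so the counts describe these genes only.

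Gm20612 (chromosome 9, 45261055 to 45261290), a processed pseudogene in Il10ra, a chain of the IL-10 receptor, was the highest with 59, 75, 73 and 45 counts against 34, 10, 20 and 31 for Il10ra. Its best match among transcripts of protein-coding genes was to the ribosomal protein gene Rpl17, at 92.1% identity over 69.9% of its length. Cd247 enclosed 3 well counted guests and 1 without a count. Gm37856 had 32, 38, 58 and 20 counts, Gm37469 40, 46, 18 and 27, and Gm32999 8, 16, 20 and 3. Cd247 had 533, 577, 389 and 338 counts, shares 3007 of its exon bases with opposite-strand genes, and was the denser in every library.

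Antisense guests lay in further genes of this list. Gm16364 in Fyn, a kinase of the T cell receptor pathway, had 21, 40, 38 and 24 counts against 23, 10, 7 and 20. Gm12000 in Ikzf1, a lymphoid transcription factor gene, had 27, 37, 37 and 10 against 122, 24, 29 and 88. Both were denser than the enclosing gene in 4 of 4 libraries, Gm12000 by a log2 ratio of only 0.12 in replicate 4. Guest counts were highest, and enclosing gene counts lowest, in replicates 2 and 3.

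In Zap70 and Dock2 the order of guest and host changed between libraries. Gm18828, a pseudogene in the kinase gene Zap70, had 7, 35, 28 and 22 counts against 83, 22, 8 and 61, and its log2 ratio was -1.91, 2.22, 3.31 and 0.11. Fam196b, a coding gene interleaved with Dock2, a regulator of lymphocyte migration, had 4, 8, 30 and 25 counts against 74, 43, 27 and 75. It was denser than Dock2 in replicate 3 alone.

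Pseudogenes supplied 52 of the well counted guests. These were 3.81% of the nested pseudogenes, against 1.57% of all pseudogenes outside the excluded chromosomes. All 52 matched a transcript of a protein-coding gene by BLAST, some only in part, such as Gm17137 at 65.6% identity over 21.9% of its length. For 24 of the 52 the match had at least 90% identity over at least 80% of their length. Fragments that align to both parent and copy could be misplaced or left uncounted, so the counts of these 24 are uncertain. The best match was a ribosomal protein gene for 24 of the 52. Rpl14-ps1 in the ion channel gene Trpm4 is 98.9% identical to Rpl14 and had 138, 32, 28 and 97 counts. Gm16184 in Pvr is 86.6% identical to Rpl14 and had 72, 133, 77 and 61. These copies of the same parent were highest in different libraries. Gm12854 in Uqcrh, 99% identical to S100a11, had 79 counts over the 4 libraries.

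Of the small RNA guests, 283 were snRNA genes, 252 miRNA hairpins, 211 snoRNA genes, 123 rRNA genes and 99 miscellaneous RNAs. A count was found for 89 of the snRNA genes, 41 of the miRNA hairpins, 37 of the snoRNA genes, 15 of the rRNA genes and 23 of the miscellaneous RNAs. Well counted were 6, 5, 5, 2 and 1 of them. Of all 973 small RNA guests, 21.3% had a count and 1.95% were well counted. Among all small RNA genes outside the excluded chromosomes the shares were 6.91% and 1.37%. Many of the guests are near-identical copies of other small RNA genes, so their fragments could be misplaced or left uncounted. A count over a hairpin does not measure the mature miRNA.

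Gm22478, whose sequence is given above, had 49, 52, 79 and 50 counts inside Snrnp70, the U1-70K gene of the spliceosome, which had 634, 281, 319 and 283. Gm26394 had 46, 44, 22 and 29 inside the topoisomerase gene Top2a, which had 320, 103, 133 and 203. Mir6386, in Plscr1, had 10, 16, 31 and 30 counts. Mir378b, in Msi2, had 20, 9, 20 and 0. Gm26394 did not vary beyond Poisson sampling (adjusted p = 0.182, chi-square test), while the hairpins of Mir6386 and Mir378b did (adjusted p = 2.64e-05 and 5.01e-05).

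The kinds of guest did not follow the libraries alike. Long noncoding guests of protein-coding genes summed to 1619.6, 1974, 2129 and 1578 CPM in replicates 1 to 4, and pseudogene guests to 1122, 1309.9, 1366 and 919.6 CPM. Small RNA guests summed to 487, 548, 707 and 505 CPM. These 3 kinds were thus highest in replicate 3. Protein-coding guests of protein-coding genes summed to 2082, 1931, 2241 and 2614 CPM, and those of long noncoding genes to 769, 634, 624 and 1049.9 CPM, both highest in replicate 4.

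Scaling by TMM, which sets the bulk of genes level, moved the highest library of 2 of these 5 kinds. The sums became 1489, 2330, 2335 and 1327 CPM for long noncoding, 1031, 1546, 1498 and 773 CPM for pseudogene and 448, 647, 776 and 424 CPM for small RNA guests. For protein-coding guests they became 1913, 2280, 2458 and 2198 CPM in protein-coding and 707, 748, 684 and 883 CPM in long noncoding genes. Under both scalings, replicates 2 and 3 exceeded replicates 1 and 4 in long noncoding and pseudogene guests. Of the 245 well counted nested genes, 93 were highest in replicate 3 by CPM and 99 after TMM. Of all 7543 well counted genes, 1446 and 1514 were highest in replicate 3, and 3245 and 2629 in replicate 4.

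**Figure D5:**
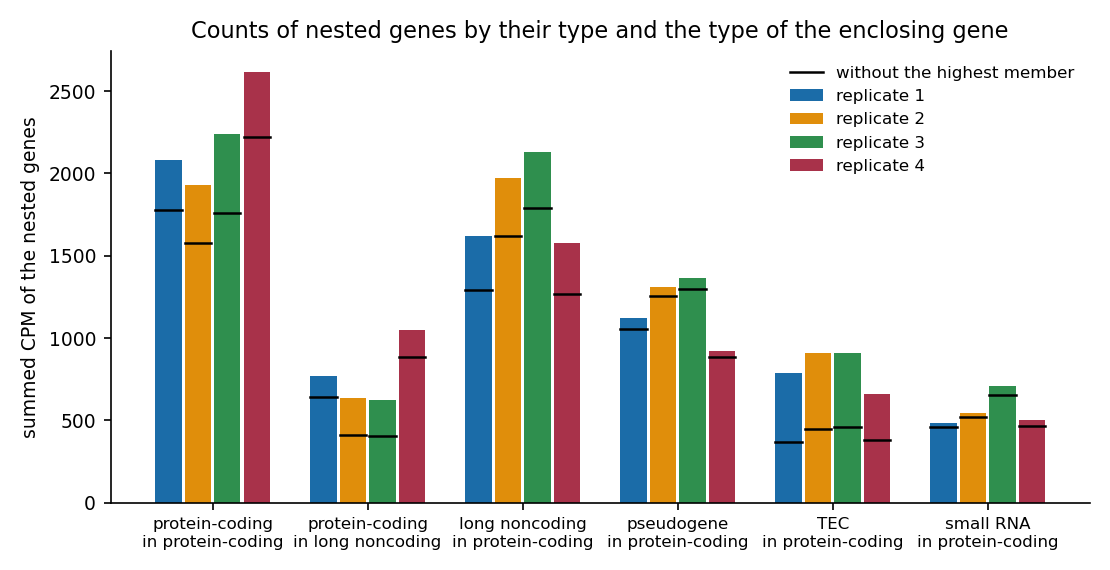
Summed CPM of nested genes (y axis) in each replicate (bars), by the type of the nested gene and of its enclosing gene (x axis); black lines give the sum without the highest gene of that kind. Long noncoding guests of protein-coding genes stand at 1619.6, 1974, 2129 and 1578 CPM in replicates 1 to 4.

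The guests of widest spread were coding genes and a small RNA. Rpl7l1, a ribosomal protein-like gene in Gm26904, had 34, 20, 3 and 93 counts. Gigyf1, a translational repressor gene in Epo, the uncounted erythropoietin gene, had 24, 40, 1 and 43. Skp1a, a ubiquitin ligase subunit gene in Gm26551, had 60, 17, 3 and 57. Each of these 3 was lowest in replicate 3. Bub3, a spindle checkpoint gene, had 27, 3, 20 and 41, with its low value in replicate 2. Gm26254, an snRNA model in Map3k7, went another way, with 37, 31, 58 and 3 counts.

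Variation beyond Poisson sampling was found for 213 of the 245 well counted nested genes (86.9%), against 88.2% of the 7752 genes tested on all chromosomes (chi-square test, Benjamini-Hochberg adjusted p up to 0.05). Nested genes were near the background in this respect. In edgeR's quasi-likelihood fits, which set every library in turn against the remaining 3, 0 of 245 passed the same threshold in any library, against 0%, 0.0129%, 0.0387% and 0% of all genes for replicates 1 to 4. Leaving out 1 of the other libraries changed these counts. Without replicate 1 among the others, 22 of 245 (8.98%) passed for replicate 4, against 18% of all genes tested. Without replicate 2, 14 (5.71%) passed for replicate 3, against 10.7%. Without replicate 3, 5 passed for replicate 2, against 5.38% of all genes, and without replicate 4, 2 passed for replicate 1, against 2.94%. In these fits without 1 of the other libraries, each share of nested genes was below that of all genes. The unadjusted values given next did not keep this order. As shares of those tested, nested genes were below all genes for replicates 1 and 3. They were slightly above all genes for replicate 2 and clearly above for replicate 4. At an unadjusted p under 0.05 there were 1, 7, 19 and 33 nested genes, against 0.516%, 2.83%, 9.30% and 8.94% of all genes. DESeq2 also called 0 nested genes in each library. On simulated counts of 7752 genes, the edgeR test recovered 2.5% of 4-fold and 74.5% of 16-fold changes, so it reaches only large differences.

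The density ratio to the enclosing gene was tested for the 38 nested genes chosen by rule, with an exact two-sided sign-flip test over the 4 libraries. The ratio was above 0 in 4 of 4 libraries for 23, below 0 in 4 of 4 for 10, and of mixed sign for 5. The rules took these genes from the same counts, among them the 5 highest and 5 lowest ratios. The signs and the test thus partly restate the choice. For 5 of the 38 the enclosing gene had no count, so that their ratio rests on the 0.5 counts added. The adjusted p lay between 0.144 and 0.375 for this exact test. With 4 libraries its smallest p is 0.13, so it cannot reach 0.05, and the sizes and spreads given are the description of these ratios.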

How the data were processed

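RNA of 4 biological replicates of mouse Th2 cells was sequenced, as total RNA-seq per the labels, while the linked library protocol is named for poly(A) RNA. Per the file headers, the authors' deposited values are raw fragment counts per gene, from featureCounts v1.4.6-p4 run on STAR alignments over GENCODE M13 exons (mm10), with paired fragments and the strand option 1. The STAR version was not given in the sources used here, and the command lists no option for fragments with several alignments.

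From these counts, CPM, CPM per kb of exon and shares with 95% Wilson intervals were computed. Symbols and types came from GENCODE M21 by identifier (50376 of 50600 matched, 4015 of the 4030 nested genes). Where several genes enclose a nested gene, the one with the shortest span was used. For genes whose mean count reached 10, replicates were compared in a chi-square test with TMM-scaled sizes and by edgeR 4.0.16 (R 4.3.3), with DESeq2 1.42.0 as alternative, each adjusted by Benjamini-Hochberg over all genes tested. Density ratios, with 0.5 counts added, were tested by an exact sign-flip test. Pseudogenes were matched to transcripts of protein-coding genes with BLAST 2.17.0. Python 3.11.15 was used elsewhere. Tests were tried on simulated counts of 7752 genes, where the chi-square test recovered 70% of 2-fold and the edgeR test 0% of 2-fold changes in 1 library.

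Genes were named by rule: the 15 nested genes of highest mean CPM, the 10 highest protein-coding ones, well counted guests of a T cell list (at most 12), the 5 highest and 5 lowest density ratios with both genes well counted, and the 5 of widest spread with a mean count of at least 20. Nested genes, lists and rules were chosen with earlier results of these data known.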

Additional observations from a re-analysis of the deposited data

Results flagged for a closer look

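For 39 values, chiefly the CPM of the named nested genes, each library was compared with the other 3, and 3 genes had a library that stood apart. Chance gives such a result in about 1 of 20 groups. Gm37637, the antisense model in Mrps22, had 106 CPM in replicate 3 against 71.3, 73.8 and 76.1 in replicates 1, 2 and 4. Gm18828, the pseudogene in Zap70, had 3.93 CPM in replicate 1 against 18.8, 19.4 and 17.3 in the others. Gm17622 in Polk had 32.5 CPM in replicate 3 against 7.86, 10.2 and 9.42 in replicates 1, 2 and 4. Replicate 3 is thus the high library for 2 of these genes, and replicate 1 the low library for the other one.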

How the results depend on the processing

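The share of counts in nested genes, 0.782% in the main setting, was 0.680% for the 3795 inside 1 intron. It was 0.390% for the 3033 at least 1000 bp from an opposite exon. Fewer genes enter in both, and the genes left out by distance had the higher densities given above. A mean count of at least 5 was reached by 418 nested genes and one of at least 20 by 120, of which 110 varied beyond Poisson sampling. The count of nested genes denser than their enclosing gene was 342 of 1088 pairs at least 1000 bp from an opposite exon and 230 of 758 pairs with at least 100 counts. In pairs where both genes were well counted, an alternative added after seeing the data, it was 111 of 160, with a median log2 ratio of 1.79. With 0.1 counts added in place of 0.5, the median over all pairs was -1.63, and the 627 pairs whose nested gene had no count move with this choice. Leaving out 1 of the other 3 libraries in turn, edgeR called 0 to 2 nested genes for replicate 1, 0 to 5 for replicate 2, 0 to 14 for replicate 3 and 0 to 22 for replicate 4. The highest counts came without replicate 4, 3, 2 and 1, respectively, where 2.94%, 5.38%, 10.7% and 18% of all genes were called, and the cause was not tested. The 48 other alternatives for these results stayed within 1.5 times, or within the spread between replicates, and 190 of 190 alternatives for the 38 named ratios kept the direction of the mean, though not its size. With 0.1 counts added, the log2 ratio of Gigyf1 went from 2.31 to 4.51 and that of Eif2s2 from 5.48 to 7.80. Gm18828 went from 0.93 to 0.14 without replicate 3 and to 1.88 without replicate 1, Fam196b from -0.87 to -0.17 without replicate 1, and Skp1a from 2.96 to 1.62 without replicate 4. No comparison of conditions, paired or not, was possible because all libraries belong to 1 group. At this depth, a nested gene without a count may have a level of up to 1.62 to 2.35 CPM.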
